A study of Homo sapiens with 2 samples.

Results

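The genes described here carry glucose from outside the cell to pyruvate and decide where the pyruvate goes. Of 33694 genes listed in the files, 36 were chosen by symbol as members of this pathway, by a rule that uses no measured value, though with earlier results of these data known, and all 36 were found. They comprise 3 glucose transporters (SLC2A1, SLC2A2 and SLC2A3), 16 glycolytic enzymes and their isozymes from the hexokinases HK1 and HK2 to the pyruvate kinases PKM and PKLR, the 2 lactate dehydrogenases LDHA and LDHB, and the 2 monocarboxylate transporters SLC16A1 and SLC16A3. They also hold 5 genes of pyruvate entry into the mitochondrion (PDHA1, PDHB, PC, MPC1 and MPC2), 3 pyruvate dehydrogenase kinases (PDK1, PDK3 and PDK4), and 5 genes that bear on glucose flux from outside the main chain: G6PC2, PFKFB2, PFKFB3, TXNIP and HADH. The study asked what SOX9, a transcription factor, does in human beta cells. It used enhanced beta clusters (eBCs), which are islet-like aggregates made by differentiating the human embryonic stem cell line Mel1-INS-GFP, in which GFP reports insulin, and then reaggregating sorted GFP-high cells. Both libraries came from the iSOX9KO version of this line, 1 clone with doxycycline-inducible Cas9 and SOX9 guides, cultured in the same medium. One 10X Genomics library carried the label no DOX, and the other the label DOX, with 2 ug/ml doxycycline from day 12 of differentiation.

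Glucose enters a cell through SLC2A family transporters and is trapped by phosphorylation, split into triose phosphates and oxidised to pyruvate, which is either reduced to lactate and exported or carried into mitochondria and oxidised. Beta cells couple this flux to insulin secretion, so that ATP made from glucose closes potassium channels and opens the way to calcium entry. Mature beta cells are known for keeping lactate dehydrogenase A and the monocarboxylate transporter SLC16A1 low, which steers pyruvate into mitochondria, and immature or dividing cells for relying more on lactate production.

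The deposited files held unique molecular identifier (UMI) counts of 30288 and 31817 cell barcodes for the libraries labelled no DOX and DOX, with 550240855 and 520849221 UMIs. After removal of barcodes under 1000 UMIs and of predicted doublets, 21808 and 23118 cells remained, with median depths of 13957.5 and 12667 UMIs. In what follows, pairs of values are in the order no DOX, DOX by label, and levels are counts scaled to 1000000 UMIs (CPM) summed over the cells of a class. The libraries shared 141 barcodes among the cells kept, of which 34 lay in the same class. There was 1 library per condition, so no test was made and no spread between replicates was known. The intervals given are 95% intervals, exact Poisson for a level and exact binomial for a ratio or a share, and they cover counting error only. SOX9 itself had no fewer transcripts under the label DOX than under no DOX, at 2.998 CPM (946 UMIs) and 3.78 CPM (1147 UMIs), a log2 ratio of 0.33 (0.21 to 0.46), and at 252 and 283 CPM in duct-like cells, so the labels could not be checked on transcript level. Whether the labels were exchanged was not tested. Every direction between the libraries below is a direction between labels and would turn if they were.

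Clustering without the 36 members gave 6 classes named from marker genes: beta-like (7015 and 9890 cells), beta cell progenitor-like (5268 and 5321), alpha-like (5084 and 4120), delta-like (2634 and 1927), proliferating progenitor-like (508 and 509) and duct-like (153 and 178). Of the markers fixed for each, 27 of 28, 14 of 14, 14 of 14, 13 of 14, 14 of 14 and 14 of 14 were at least 2-fold higher in their own class than in the other cells. Naming itself asked for at least 3 such markers, so these counts are partly built in. Those marker lists came from the study's clusters of the same libraries, and differences from its classes may come from names rebuilt here. A further 1146 and 1173 cells, with medians of 1891 and 2059 UMIs and of 75.8% and 66.8% mitochondrial UMIs, were left unnamed. INS transcripts were found in every class, at 194882 and 194113 CPM in beta-like, 148722 and 119481 CPM in alpha-like and 143617 and 123236 CPM in delta-like cells. Duct-like cells had 12.2% and 10.1% of the endocrine level of INS and 12.3% and 7.53% of that of GCG, and a member at such a share of its endocrine level in these cells cannot be told apart from free RNA. Contrasts between classes are between clusters of the same cells and are given as descriptions. UMIs count transcripts at 1 end, so that no length scaling applies, but capture differs between genes and levels of different genes are compared only as shares of UMIs.

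Summed over all 36 genes, the pathway took the most UMIs in the proliferating (4929 and 4679 CPM) and beta cell progenitor-like cells (4761 and 4535 CPM), and the fewest in delta-like cells (2197 and 2269 CPM). Beta-like cells held 3450 and 3215 CPM, alpha-like cells 3416 and 3464 CPM and duct-like cells 4413 and 4395 CPM. The 16 glycolytic enzymes ran from 1547 and 1608 CPM in delta-like to 4012 and 3787 CPM in beta cell progenitors. The 4 endocrine classes differed by less in pyruvate entry, from 279 and 285 CPM in delta-like to 499 and 508 CPM in alpha-like cells. The pyruvate dehydrogenase kinases, which switch off the enzyme that feeds pyruvate into the citrate cycle, were lowest in duct-like (20.4 and 19.0 CPM) and next in progenitors (53.0 and 47.9 CPM), and highest in alpha-like cells (239 and 256 CPM). GAPDH had the highest level of the 16 glycolytic enzymes, at 1180 and 1075 CPM in beta-like and 1973 and 1847 CPM in duct-like cells.

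Among the 4 endocrine classes with the libraries pooled, 21 of the 36 genes were highest in beta cell progenitor-like cells, 9 in alpha-like, 4 in delta-like and 2 in beta-like cells (PDHA1, a subunit of pyruvate dehydrogenase, and HADH). The lead of PDHA1 in beta-like cells was small, at 29.5 CPM pooled against 28.6 CPM in progenitors. Delta-like cells were lowest for 25 genes. The highest of the 4 classes was the same in both libraries for 30 genes and the lowest for 27. With the libraries pooled, PDK4 was the sole member lowest in beta cell progenitor-like cells, which were lowest for 3 and 4 members in the single libraries. Over all 6 classes, the class of highest level was the same in both libraries for 31 of 36 genes. The median log2 ratio of progenitors over beta-like cells was 0.59 for all genes tested and 0.45 for the members. None of these counts was made over all genes, so the orders have no background beside them. These orders depend on how much of a cell's RNA is hormone transcript, since CPM is a share: INS, GCG, SST, IAPP and the mitochondrially encoded genes took 42.8% and 41.2% of UMIs in delta-like cells, 27.5% and 28.2% in beta-like cells and 17.6% and 16.8% in beta cell progenitor-like cells. With these left out of the total, progenitors were highest for 18 genes and lowest for 6, and delta-like cells were lowest for 14. This alternative was added after the data were seen.

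**Figure D1:**
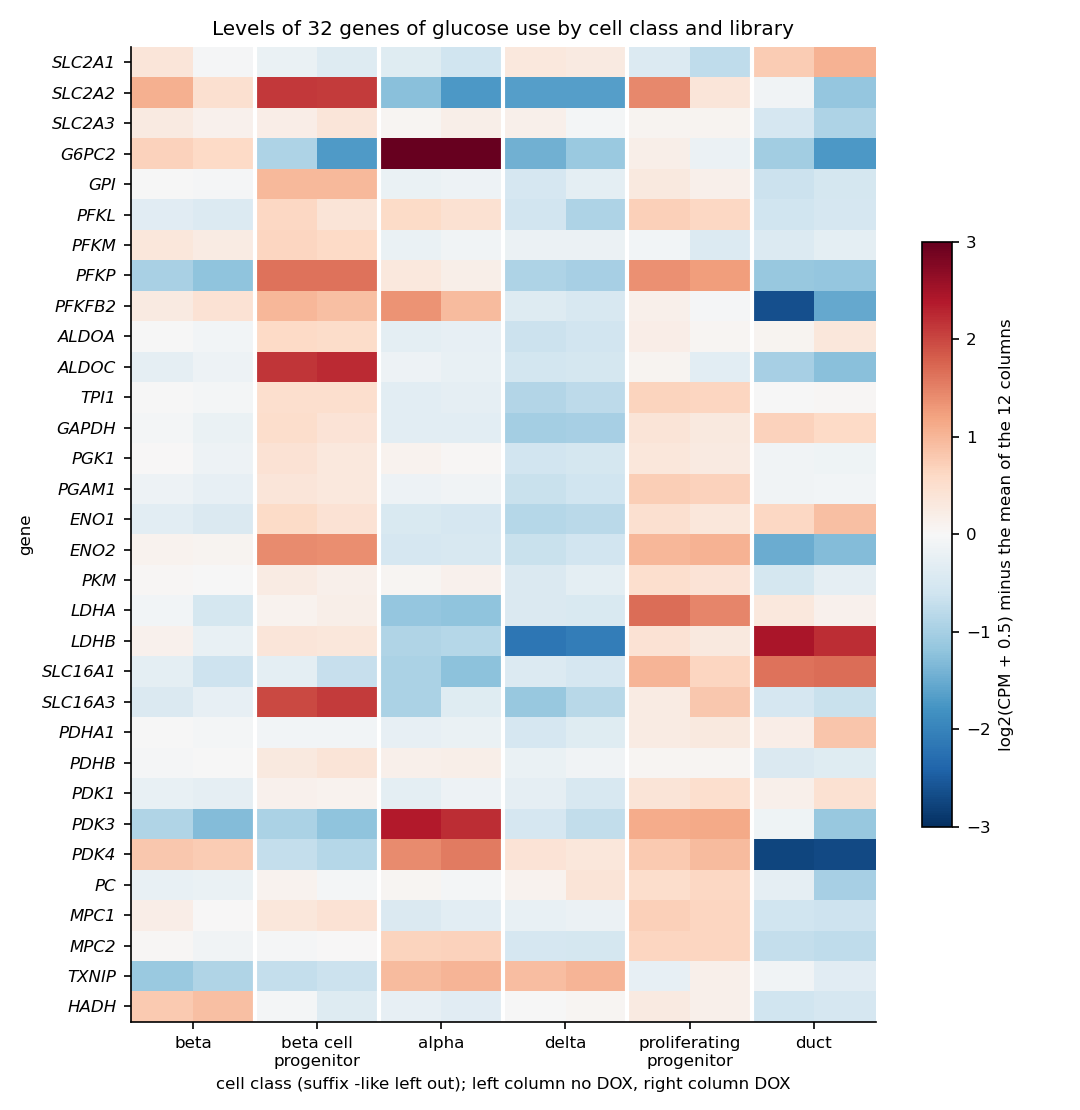
Levels of the 32 genes that reached 5 CPM in some class of the pooled libraries (rows), in 6 cell classes and 2 libraries (columns), as log2(CPM + 0.5) minus the gene's mean over the 12 columns; red is higher and blue lower. SLC2A2, PFKP, ALDOC, ENO2 and SLC16A3 are reddest in beta cell progenitor-like cells, G6PC2 and PDK3 in alpha-like cells, LDHA in proliferating progenitor-like cells and LDHB and SLC16A1 in duct-like cells. These peaks are alike in the 2 libraries. Some low genes differ between the libraries in duct-like cells, such as PFKFB2 (0.799 and 2.29 CPM) and PDK3 (5.20 and 2.29 CPM).

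Beta cell progenitor-like cells, marked by TPH1, FEV and NEUROD4, differed from beta-like cells at several steps of glycolysis. A gene was counted as higher or lower when its level was at least 2-fold apart in each library alone. It had also to reach 10 CPM in 1 of the classes with the libraries pooled. Of 24 members at that level, 4 were higher and 1 was lower, against 24.3% and 3.2% of the 9261 genes tested. The median of all genes lay at a log2 ratio of 0.59 and that of the members at 0.45, so that the members as a group stood no higher than genes in general. PFKP, the platelet-type phosphofructokinase, was at 83.9 CPM in progenitors of both libraries and at 13.5 and 11.4 CPM in beta-like cells, a pooled log2 ratio of 2.76 (2.71 to 2.82). ALDOC, the brain-type aldolase, was at 35.6 and 37.8 CPM against 6.28 and 6.90 CPM, a ratio of 2.47 (2.39 to 2.55). The classes did not overlap between libraries for either gene, and the other phosphofructokinases and the main aldolase ALDOA (log2 0.63) differed by less.

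ENO2, the neuronal enolase, was at 87.2 and 86.4 CPM in progenitors and at 35.2 and 34.1 CPM in beta-like cells, a log2 ratio of 1.33 (1.29 to 1.37). GPI, the isomerase that turns glucose 6-phosphate into fructose 6-phosphate, was at 93.1 and 92.9 CPM against 46.4 and 46.0 CPM, a ratio of 1.01 (0.97 to 1.05). GPI lay just past the 2-fold limit and PFKL, the liver-type phosphofructokinase (log2 0.91), and ENO1 (0.89) just short of it. With hormone and mitochondrial UMIs left out of the total the median of all genes was 0.39 and that of the members 0.25. PFKP, ALDOC and ENO2 were then still at least 2-fold higher, GPI was not (0.81), and G6PC2 and HADH joined PDK4 as lower. Relative to the median of all genes, PFKP and ALDOC remained at least 2-fold higher and PDK4 at least 2-fold lower, with HADH beside it.

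PDK4, a kinase induced by fasting and fat that blocks pyruvate oxidation, ran the other way, at 45.9 and 41.4 CPM in progenitors and 134 and 130 CPM in beta-like cells, a log2 ratio of -1.59 (-1.63 to -1.55). HADH, a mitochondrial fatty acid dehydrogenase that also restrains glutamate dehydrogenase in beta cells, was at 50.7 and 40.5 CPM against 91.6 and 99.7 CPM, with log2 ratios of -0.85 and -1.30, so that it passed 2-fold in the library labelled DOX alone. Of the other glycolytic genes, GAPDH (0.61), TPI1 (0.54), PGAM1 (0.55) and PGK1 (0.45) lay near the median of all genes and PKM (0.20) below it. The pyruvate carrier subunit MPC2 (0.02) and PDHA1 (-0.05) did not move with that shift, and SLC2A1, the widespread glucose transporter, was lower in progenitors (-0.46). SLC2A2, the transporter named for liver and beta cells, was too low to be counted but was at 7.47 and 7.39 CPM in progenitors and 3.37 and 2.05 CPM in beta-like cells.

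Other genes of glucose use from lists written beside the members were read in the same way. In the list of malate and glycerol phosphate shuttles, which pass cytosolic NADH to mitochondria, 4 of 11 genes were higher in progenitors and none was lower, with a list median of 0.72 against 0.59 for all genes. Over all genes 24.3% were higher and 3.2% lower in this contrast, and most shares of higher genes in these lists lay below that. The 4 higher shuttle genes were the malic enzyme ME1 (15.7 against 2.53 CPM pooled, log2 2.64), the glycerol phosphate dehydrogenases GPD2 (46.2 against 15.4 CPM, 1.59) and GPD1 (66.6 against 30.5 CPM, 1.13), and the aspartate-glutamate carrier SLC25A12 (15.3 against 7.33 CPM, 1.06). Of 15 citrate cycle genes 1 was higher, OGDH, a subunit of the oxoglutarate dehydrogenase (33.2 against 15.2 CPM), and of 9 pentose phosphate and polyol genes 1 was lower, the isomerase RPIA (15.1 against 40.5 CPM). Of 16 hypoxia-responsive genes 3 were higher and 1 was lower, with EGLN3, an oxygen-sensing hydroxylase, at 21.5 against 2.79 CPM. Of 5 glucose-responsive genes 1 was higher, MLXIP, a glucose-sensing transcription factor (47.4 against 10.9 CPM). Of 13 further glycolysis genes 1 was higher (PGM2, 21.1 against 4.57 CPM), as was 1 of 15 fatty acid oxidation genes (CPT1C) and 1 of 7 pyruvate dehydrogenase complex genes (PDP2).

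The promoters of 3 of the 4 higher genes are shown because they share a short motif. Windows of RefSeq (GRCh38.p14) from 250 bases before to 50 bases after each annotated start were matched by symbol to 33 of the 36 members, all but SLC2A3, SLC16A1 and PFKFB2. Capitals mark ACGTG, the core bound by the hypoxia-inducible factors, or its other strand CACGT, and where both overlap they spell the E-box CACGTG. A match is a description of letters and not of binding.
GPI, chr19:34364742-34365041, plus strand: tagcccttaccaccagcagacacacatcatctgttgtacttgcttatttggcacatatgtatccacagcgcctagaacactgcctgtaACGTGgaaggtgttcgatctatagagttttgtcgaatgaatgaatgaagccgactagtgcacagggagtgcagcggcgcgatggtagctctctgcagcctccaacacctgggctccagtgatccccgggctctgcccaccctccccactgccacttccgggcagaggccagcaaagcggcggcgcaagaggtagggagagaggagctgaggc
ALDOC, chr17:28576846-28577145, minus strand: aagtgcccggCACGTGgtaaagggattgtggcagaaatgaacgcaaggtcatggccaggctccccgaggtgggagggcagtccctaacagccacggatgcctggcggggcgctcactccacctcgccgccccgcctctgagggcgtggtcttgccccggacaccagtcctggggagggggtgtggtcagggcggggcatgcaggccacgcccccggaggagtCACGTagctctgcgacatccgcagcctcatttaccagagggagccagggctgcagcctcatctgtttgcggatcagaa
ENO2, chr12:6914330-6914629, plus strand: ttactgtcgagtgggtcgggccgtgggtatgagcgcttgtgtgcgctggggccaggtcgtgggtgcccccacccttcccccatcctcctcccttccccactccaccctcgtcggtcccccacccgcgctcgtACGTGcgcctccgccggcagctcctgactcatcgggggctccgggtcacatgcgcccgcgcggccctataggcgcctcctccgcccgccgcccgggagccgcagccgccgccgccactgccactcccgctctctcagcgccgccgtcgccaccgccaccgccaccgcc
The core stood once in the GPI and ENO2 windows and at 2 places in that of ALDOC, 1 of them the palindrome CACGTG. PFKP, the remaining higher gene, is not shown. Of its 4 listed windows 1 held the core, and the first listed did not. Over the 33 matched members, 19 had it in at least 1 window (57.6%), against 24.9% of the 27305 genes listed, and 23 of 66 member windows had it (34.8%), against 21.4% of 35116. Members had 66 windows over 33 genes, where all genes had 35116 over 27305. More windows per gene raise a share counted by gene. The members with the core also included ALDOA, TPI1, GAPDH, PGK1 and LDHA, none of which was counted as higher in progenitors. SLC16A3, PFKFB3, PDK1 and PDK3 had it too but were under the minimum level in this contrast and could not be counted. Their pooled log2 ratios were 2.87, 1.52, 0.42 and 0.04.

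**Figure D2:**
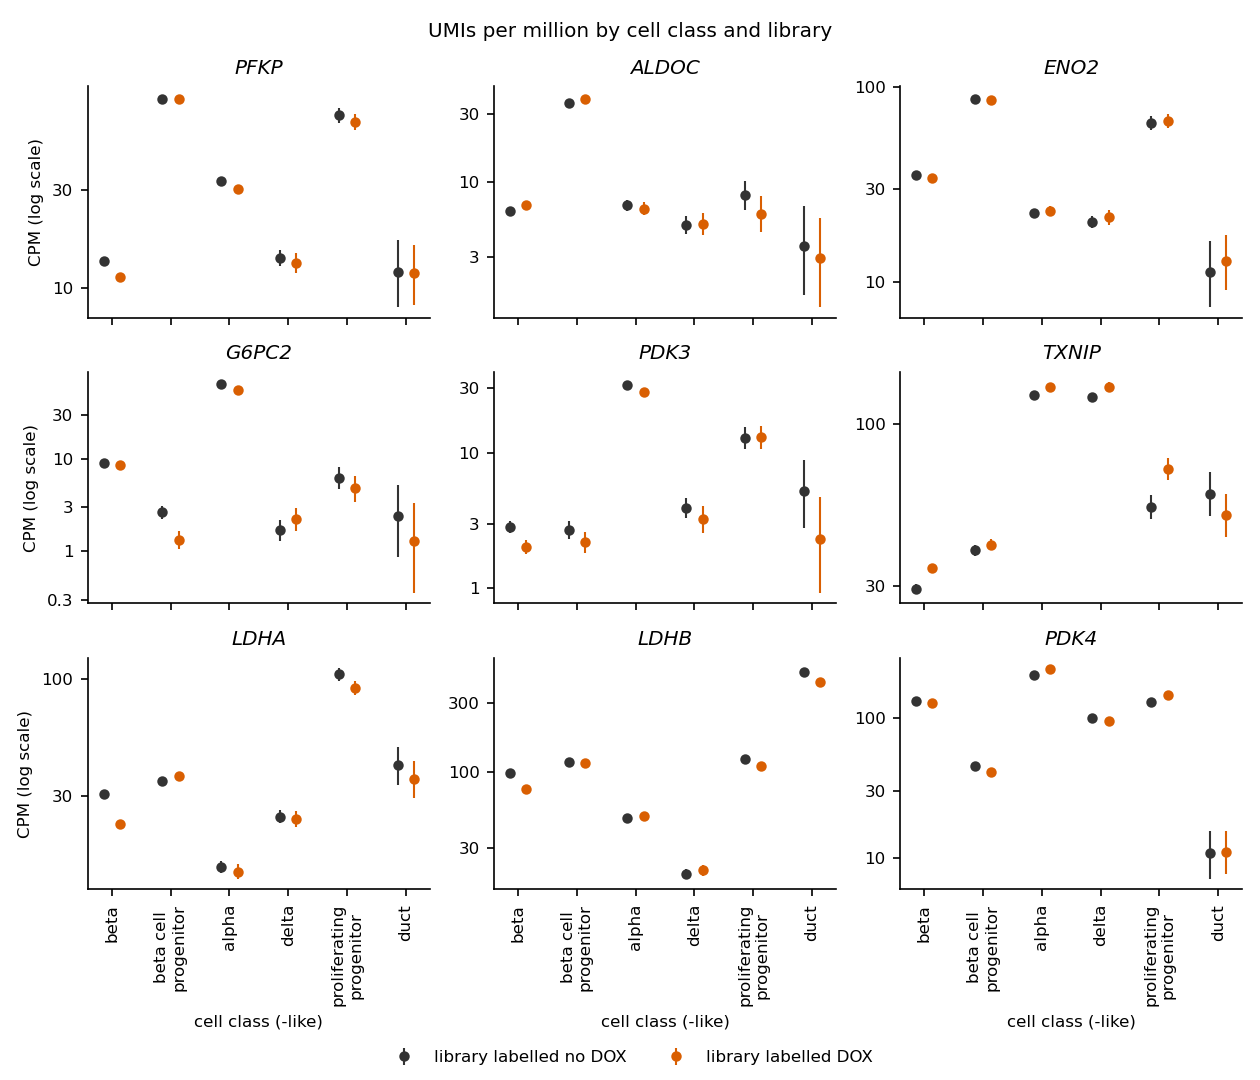
Levels of 9 genes in CPM (log axis) by cell class, black for the library labelled no DOX and orange for the library labelled DOX, with exact Poisson 95% intervals. PFKP, ALDOC and ENO2 peak in beta cell progenitor-like cells, G6PC2 and PDK3 in alpha-like cells, TXNIP is high in alpha-like and delta-like cells, LDHA peaks in proliferating progenitor-like and LDHB in duct-like cells, and PDK4 is lowest in duct-like cells.

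Alpha-like cells, marked by IRX1, IRX2 and GCG, differed from beta-like cells most in PDK3 and G6PC2 among the members that reached 10 CPM. Of 25 members tested 4 were higher and 1 was lower, against 5.2% and 4.43% of 8197 genes, with medians of -0.10 for the members and 0.04 for all genes. G6PC2, an islet phosphatase that turns glucose 6-phosphate back into glucose, was at 64.9 and 55.2 CPM in alpha-like and 9.10 and 8.58 CPM in beta-like cells, a log2 ratio of 2.78 (2.72 to 2.85). PDK3, a pyruvate dehydrogenase kinase, was at 31.8 and 28.1 CPM against 2.82 and 2.02 CPM, a ratio of 3.66 (3.54 to 3.78). Both were higher in alpha-like than in any other class of both libraries. TXNIP, a glucose-induced protein that limits glucose uptake, was at 124 and 131 CPM against 29.4 and 34.4 CPM, a ratio of 1.98 (1.95 to 2.02). PFKP was at 33.5 and 30.5 CPM, a ratio of 1.38 (1.32 to 1.45), between beta-like and progenitor levels.

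HADH was lower, at 44.8 and 41.9 CPM against 91.6 and 99.7 CPM, a log2 ratio of -1.14 (-1.18 to -1.10). With another random seed of the clustering the ratio was 0.25, and HADH was also not counted with doublets kept (-1.08) or with cells over 20% mitochondrial UMIs left out (-1.10). PDK4 (205 and 224 CPM against 134 and 130 CPM) and MPC2 (365 and 369 CPM against 235 and 212 CPM) were higher by less than 2-fold. LDHA (14.5 and 13.8 CPM) and LDHB (47.9 and 49.4 CPM) were lower than in beta-like cells, by less than 2-fold in at least 1 library. A shallow cluster of alpha-like cells, with medians of 2842 UMIs and 0.80% mitochondrial UMIs, had G6PC2 at 22.0 and 14.7 CPM, where the main alpha-like cluster, with 13610.5 UMIs and 8.88%, had 66.8 and 56.4 CPM. A further 98 and 58 cells of the shallow cluster lay in the delta-like class, and the part of RNA quality in these values was not tested. PDK3 differed by less between the same clusters, at 20.6 and 26.7 CPM against 32.4 and 28.1 CPM.

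Windows of 3 of the genes higher in alpha-like cells are given for comparison, with ACGTG in capitals and, in TXNIP, the carbohydrate response element repeat, CACGAG (other strand CTCGTG).
G6PC2, chr2:168901041-168901340, plus strand: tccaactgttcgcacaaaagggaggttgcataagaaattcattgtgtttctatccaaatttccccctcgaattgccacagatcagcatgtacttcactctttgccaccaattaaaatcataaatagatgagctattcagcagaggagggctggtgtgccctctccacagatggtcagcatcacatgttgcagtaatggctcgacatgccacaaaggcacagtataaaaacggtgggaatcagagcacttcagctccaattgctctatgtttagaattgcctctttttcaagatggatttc
PDK3, chrX:24465036-24465335, plus strand: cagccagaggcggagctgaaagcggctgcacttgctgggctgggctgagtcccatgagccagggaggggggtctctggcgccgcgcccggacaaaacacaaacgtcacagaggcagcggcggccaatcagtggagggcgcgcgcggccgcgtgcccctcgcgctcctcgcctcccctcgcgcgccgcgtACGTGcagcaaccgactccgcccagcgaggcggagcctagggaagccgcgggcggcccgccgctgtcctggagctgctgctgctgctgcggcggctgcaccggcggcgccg
TXNIP, chr1:145996530-145996829, minus strand: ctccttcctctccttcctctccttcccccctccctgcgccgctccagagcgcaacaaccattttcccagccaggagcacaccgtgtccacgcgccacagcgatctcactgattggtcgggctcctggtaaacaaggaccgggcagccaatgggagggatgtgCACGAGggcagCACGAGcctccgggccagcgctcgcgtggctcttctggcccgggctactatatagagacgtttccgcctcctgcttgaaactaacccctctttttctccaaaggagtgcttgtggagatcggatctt
The window of G6PC2 held neither motif, and that of PDK3 held the core ACGTG once. TXNIP held CACGAG at 2 places a few bases apart. Genes with CACGAG in some window numbered 4 of 33 members (12.1%: PFKP, SLC16A3, MPC1 and TXNIP), against 8.18% of all genes, and 8 members (24.2%) had CACGTG, against 8.77%. Members had more windows per gene than genes in general. By window, CACGAG was in 7.58% of 66 member windows against 6.78% of 35116, and CACGTG in 12.1% against 7.26%.

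The further lists were read in alpha-like cells against the same 5.2% higher and 4.43% lower of all genes. None of 10 further glycolysis genes, 16 citrate cycle genes, 15 fatty acid oxidation genes or 9 shuttle genes was 2-fold apart in both libraries, and of 9 pentose phosphate and polyol genes RPIA was lower (8.21 against 40.5 CPM). Of 16 hypoxia-responsive genes EGLN3 (23.2 against 2.79 CPM) and the prolyl hydroxylase P4HA2 (87.4 against 41.5 CPM) were higher, and NDRG1 (4.18 against 29.5 CPM) and HILPDA (12.5 against 30.2 CPM) were lower. Of 5 glucose-responsive genes KLF10 was higher (42.4 against 18.3 CPM).

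Delta-like cells, marked by SST and HHEX, had the lowest summed level of glycolytic enzymes of the 6 classes, while HK2 was highest there among endocrine classes in both libraries. Of 22 members tested 1 was higher and 1 was lower than in beta-like cells, against 4.16% and 5.16% of 8197 genes, and the members' median was -0.42 where that of all genes was -0.10. LDHB was lower, at 19.7 and 20.9 CPM against 97.9 and 76.5 CPM, a log2 ratio of -2.09 (-2.18 to -2.01). TXNIP was higher, at 122 and 131 CPM, a ratio of 1.97 (1.92 to 2.01), and so at the alpha-like level. With hormone and mitochondrial UMIs left out of the total the members' median was -0.11 and that of all genes 0.26. The members stayed below genes in general on either total. Mesenchymal markers summed to 11.5 and 16.2 CPM in delta-like and 4.56 and 7.09 CPM in beta-like cells, with COL1A2 alone of them counted as higher (log2 1.29), and their part in these values was not tested.

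Among transporters outside the members, 2 stood out in delta-like cells. SLC2A12, a glucose transporter of the same family, was at 13.9 CPM pooled against 1.31 CPM in beta-like cells (log2 3.41), the single gene of 9 further glycolysis genes that was 2-fold apart. SLC16A7, a high-affinity pyruvate and lactate transporter, was at 29.4 against 2.55 CPM (3.53). None of 15 citrate cycle genes was 2-fold apart, with a list median of -0.49. The shuttle enzyme GPD1 (13.6 against 30.5 CPM), RPIA (12.6 against 40.5 CPM), the fatty acid oxidation gene ETFDH (18.3 against 38.2 CPM) and the hypoxia-responsive NDRG1 (5.19 against 29.5 CPM) were lower.

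Within beta-like cells HADH, G6PC2 and SLC2A2 differed between clusters. Most of the class fell into 4 clusters: Beta-2-like, with markers such as MAFA and ENTPD3 (31.1% and 26.1% of beta-like cells), a Beta-1-like cluster led by MFAP4 (13.2% and 18.9%), a Beta-1-like cluster led by the metallothionein MT1B (23.3% and 16.8%), and an unnamed cluster led by GHRH and IAPP (32.0% and 37.1%). Set against Beta-2-like cells, the pooled Beta-1-like clusters had 0 of 24 members higher and 2 lower, against 2.24% and 4.14% of 8173 genes, with medians of -0.20 for the members and -0.19 for all genes. HADH was at 31.5 and 47.8 CPM in Beta-1-like and 232 and 258 CPM in the Beta-2-like cluster, with a log2 ratio of -2.62 (-2.66 to -2.57). G6PC2 was at 3.33 and 3.63 CPM against 19.5 and 19.9 CPM, a ratio of -2.50 (-2.66 to -2.34).

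HADH lay at 3 levels over these clusters: Beta-2-like, then the MFAP4-led cluster at 70.8 and 86.0 CPM, then the MT1B-led and GHRH-led clusters at 16.6 and 16.5 CPM and at 19.9 and 24.3 CPM. Thinned to 5000 UMIs a cell, a HADH UMI was found in 55.3% and 63.8% of Beta-2-like cells (79.7% and 85.8% without thinning) and in 6.61% and 7.04% of MT1B-led cells. HADH UMIs were counted in all 4 clusters, and the part of free RNA in the lowest levels was not tested. Before thinning, median depth was 20644 UMIs in the MT1B-led cluster, the highest of the 4, and 16804.5 UMIs in Beta-2-like cells. SLC2A2 was at 10.4 and 6.72 CPM in Beta-2-like cells and at 0.507 CPM or less in each of the other 3 clusters, in both libraries. Thinned, 3.85% and 3.42% of Beta-2-like cells had a SLC2A2 UMI, against 1 of 2442 and 0 of 1822 delta-like cells (exact upper limits of 0.228% and 0.202% on cells with a UMI at this depth, not on cells that express the gene), where 3 and 2 UMIs of it were counted in all.

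The MT1B-led cluster had the highest PDK4 of the beta clusters, at 188 and 224 CPM, where Beta-2-like cells had 121 and 99.9 CPM and MFAP4-led cells 81.2 and 80.7 CPM. It also had the highest LDHA, at 40.0 and 31.0 CPM, with 36.9 and 26.9 CPM in the GHRH-led cluster and 20.2 and 16.3 CPM in Beta-2-like cells. LDHB did not follow LDHA: it was at 134 and 111 CPM in Beta-2-like, 104 and 87.1 CPM in MT1B-led and 39.8 and 36.6 CPM in MFAP4-led cells. TXNIP was lowest in the MT1B-led cells (18.2 and 17.9 CPM) and highest in the MFAP4-led cells (40.2 and 51.0 CPM). Of the other lists, RPIA (26.7 against 56.1 CPM) and MLXIP (7.88 against 18.2 CPM) were lower in Beta-1-like cells, and none of 15 citrate cycle, 15 fatty acid oxidation or 15 hypoxia-responsive genes was 2-fold apart. The pluripotent marker ZFP42, the leading gene of the Beta-2-like cluster, was also lower in Beta-1-like cells (log2 -3.52), and its part in these values was not tested.

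**Figure D3:**
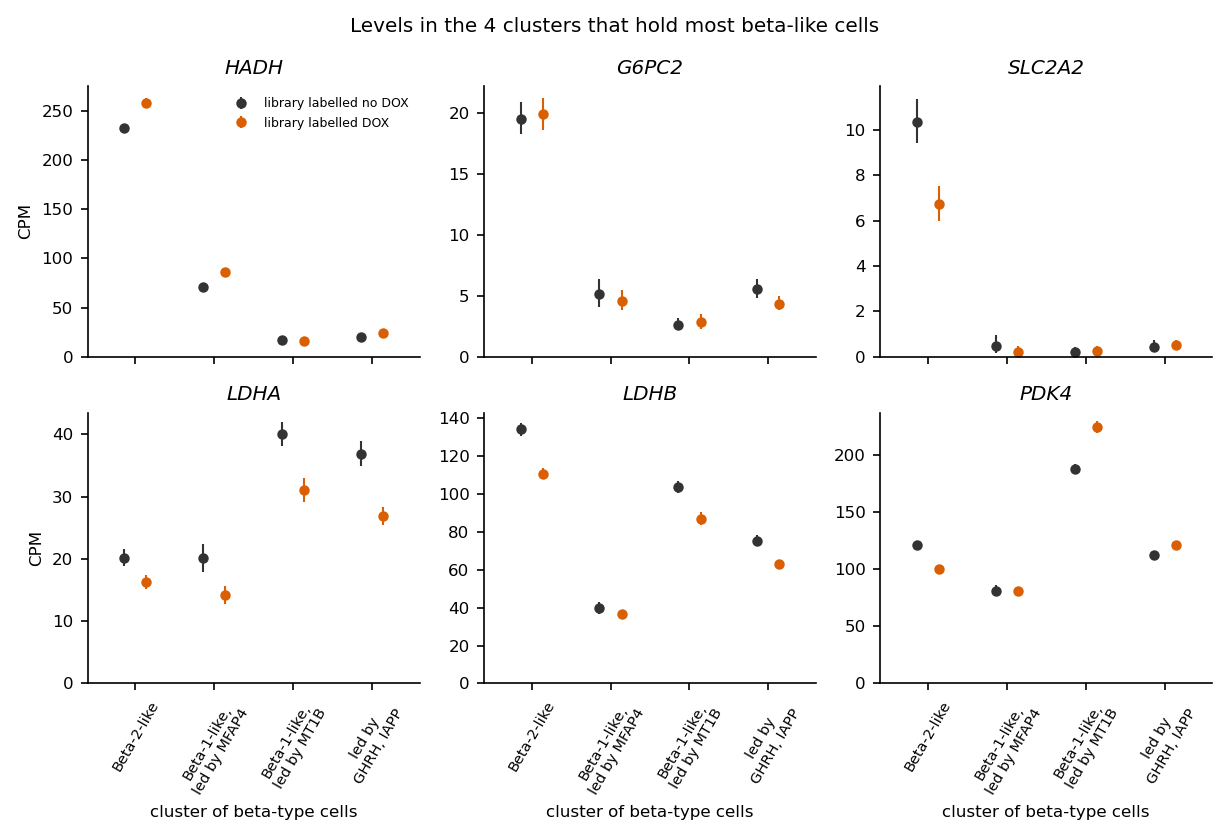
Levels of 6 genes in CPM (linear axes from 0) in the 4 clusters that hold most beta-like cells, black for the library labelled no DOX and orange for DOX, with exact Poisson 95% intervals. HADH, G6PC2 and SLC2A2 are highest in the Beta-2-like cluster, and LDHA and PDK4 in the Beta-1-like cluster led by MT1B.

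Beta cell progenitor-like cells also held a smaller cluster, led by CA2 and TAC1, which made up 10.4% and 16.7% of the class. LDHA there was at 103 and 88.5 CPM, against 29.0 and 28.9 CPM in the main progenitor cluster, and thinned to 5000 UMIs a LDHA UMI was found in 41.7% and 36.8% of cells against 14.0% and 13.1%. MPC2 was at 366 and 348 CPM against 209 and 212 CPM, PDHB, a pyruvate dehydrogenase subunit, at 113 and 108 CPM against 81.1 and 85.9 CPM, and MPC1 at 72.3 and 68.3 CPM against 48.3 and 51.4 CPM. The same cluster had less SLC2A2 (0.915 and 1.11 CPM against 7.84 and 8.12 CPM), HADH (16.7 and 12.7 CPM against 49.4 and 40.5 CPM), PFKL (42.5 and 36.7 CPM against 73.1 and 63.1 CPM) and ENO1 (227 and 221 CPM against 349 and 320 CPM).

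In proliferating progenitor-like cells, marked by MKI67 and TOP2A, 3 of 27 members were higher than in the pooled endocrine classes and 1 was lower, against 10.4% and 1.29% of 9207 genes, with medians of 0.42 for the members and 0.15 for all genes. LDHA, which makes lactate from pyruvate, was at 105 and 91.2 CPM against 27.2 and 24.0 CPM, a log2 ratio of 1.94 (1.87 to 2.01). SLC16A1, which carries lactate across the membrane, was at 19.8 and 14.9 CPM against 6.88 and 5.54 CPM, a ratio of 1.49 (1.31 to 1.66). PFKP was at 69.8 and 64.8 CPM against 33.5 and 29.4 CPM, a ratio of 1.10 (1.01 to 1.18). G6PC2 was lower, at 6.25 and 4.81 CPM against 19.4 and 14.9 CPM, a ratio of -1.63 (-1.93 to -1.33). PFKP came under 2-fold in at least 1 library with another seed (0.95), with hormones left out of the total (0.98) and against the median of all genes (0.95). Of the lists, SLC16A7, GPD2 and ME1 were higher and GPD1, NDRG1 and ARRDC4 lower.

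Duct-like cells, where SOX9 was highest, had the most members 2-fold apart of all the class contrasts. Higher and lower together, the share of members was close to that of all genes. Of 26 members 2 were higher and 6 were lower, against 17.6% and 14.3% of 9670 genes, with medians of -0.44 for the members and 0.10 for all genes. LDHB, the lactate dehydrogenase of oxidative tissues, was at 491 and 416 CPM against 81.5 and 74.6 CPM, a log2 ratio of 2.53 (2.47 to 2.58). SLC16A1 was at 29.98 and 31.5 CPM, a ratio of 2.31 (2.08 to 2.53). SLC2A1 (32.8 and 39.7 CPM), GAPDH and ENO1 (345 and 422 CPM) were also at their highest here, by less than 2-fold over the endocrine level in at least 1 library for each.

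PDK4 was at 10.8 and 11.1 CPM in duct-like and 127 and 126 CPM in endocrine cells, a log2 ratio of -3.52 (-3.91 to -3.16), and G6PC2 at 2.40 and 1.31 CPM against 19.4 and 14.9 CPM, -3.25 (-4.31 to -2.37). These were 8.52% and 8.83%, and 12.4% and 8.79%, of the endocrine level, within about the range of the shares at which INS, GCG, SST (3.06% and 10.8%) and IAPP (2.76% and 5.08%) were found in these cells, so that expression could not be told apart from free RNA. PFKFB2, a bifunctional enzyme that sets fructose 2,6-bisphosphate, had a ratio of -2.91 (-4.04 to -1.98), with 6.32% and 19.7% of the endocrine level, so that in the library labelled no DOX the same limit holds. The ratio was -1.98 (-2.74 to -1.32) for ALDOC, -1.79 (-2.16 to -1.45) for ENO2 and -1.41 (-1.78 to -1.06) for PFKP. With predicted doublets kept, these 4 were not counted as lower (PFKFB2 -1.12, ALDOC -0.57, ENO2 -0.86, PFKP -0.80), and the count of members 2-fold apart was 4 instead of 8. Acinar markers summed to 197 and 532 CPM in duct-like cells and to between 2.34 and 11.2 CPM in the other named classes. Pluripotent markers summed to 38.8 and 24.6 CPM in duct-like cells, mostly LIN28A (34.8 and 19.7 CPM), and to 10.2 CPM or less elsewhere, and mesenchymal markers to 21.2 and 14.4 CPM. The part of these markers in the values above was not tested.

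Beyond the members, SORD, the polyol enzyme that makes fructose from sorbitol, was at 775 CPM pooled in duct-like and 84.7 CPM in endocrine cells (log2 3.19). Of 15 fatty acid oxidation genes 1 was higher, ETFB (709 against 224 CPM), and 4 were lower, with the rate-limiting carnitine transferase CPT1A at 3.602 against 28.04 CPM. Over all genes 17.6% were higher and 14.3% lower in this contrast. Of 16 hypoxia-responsive genes 4 were lower and none was higher, and of 5 glucose-responsive genes 2 were lower, ARRDC4 and the carbohydrate response factor MLXIPL (16.03 against 86.6 CPM). Of 16 citrate cycle genes 1 was higher and of 9 shuttle genes 2 were lower.

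The choice of isozyme was compared as the share of a family's UMIs, where a family holds only its genes among the members. PDK2, PFKFB4 and SLC16A7, for example, are not members and were left out. SLC16A7 lay above SLC16A1 in delta-like cells. Leaders and shares therefore hold among the members alone. Of 11 families, 7 had the same leading gene in all 6 classes when the libraries were pooled: SLC2A1 among glucose transporters, ALDOA, ENO1, PKM, PDK4, PFKFB2 and MPC2. In duct-like cells the lead of PFKFB2 over PFKFB3 rested on 9 UMIs against 8, and that of PDK4 on a level that could not be told apart from free RNA. In the other 4 the leader differed between classes. PFKP supplied 46.6% and 49.9% of phosphofructokinase UMIs in beta cell progenitor-like cells, ahead of PFKL at 38.9% and 35.1%, while in beta-like cells its share was 19.2% and 17.5% and PFKL led. In alpha-like cells PFKL made up 58.3% and 57.6%. LDHA supplied 55.1% (52.6 to 57.6) and 53.2% (50.1 to 56.2) of lactate dehydrogenase UMIs in delta-like cells, where LDHB was low, and between 21.8% and 24.4% in beta-like, progenitor and alpha-like cells. It was at 46.3% and 45.4% in proliferating and at 7.74% and 7.90% in duct-like cells.

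SLC16A3, the monocarboxylate transporter of glycolytic cells, made up 47.1% and 56.6% of its pair in beta cell progenitor-like cells, so that it led in 1 library of 2, and at most 19.8% in any other class. It was nevertheless low, at 6.77 and 7.405 CPM there and at 2.71 CPM or less elsewhere. HK2 led its pair in delta-like cells, with 32 of 46 and 19 of 24 hexokinase UMIs (69.6%, 54.2 to 82.3, and 79.2%, 57.8 to 92.9), and HK1 in the other classes. Both hexokinases were scarce, HK1 at 6.23 CPM or less and HK2 at 2.00 CPM or less in every named class. SLC2A2 supplied 25.9% and 26.9% of glucose transporter UMIs in progenitors, 10.2% and 8.14% in beta-like and 0.292% and 0.303% in delta-like cells.

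Some families kept their leader while a minor member gained share. ALDOC made up 11.0% and 11.9% of aldolase UMIs in progenitors, and ENO2 20.6% and 22.1% of enolase UMIs there against 16.4% and 16.9% in beta-like and 3.15% and 2.94% in duct-like cells. PDK3 made up 13.3% and 11.0% of pyruvate dehydrogenase kinase UMIs in alpha-like and 2.01% and 1.496% in beta-like cells. Of the UMIs of PDK1, PDK3 and PDK4, PDK4 supplied between 85.4% and 96.2% in every class but duct-like cells, where it was at 52.9% and 58.6%. MPC1, the partner of MPC2 in the pyruvate carrier, took 7.29% and 7.85% of the pair in alpha-like cells and between 14.8% and 18.8% elsewhere. PKM gave at least 99.8% of pyruvate kinase UMIs in every named class, where PKLR was at 0.545 CPM or less.

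**Figure D4:**
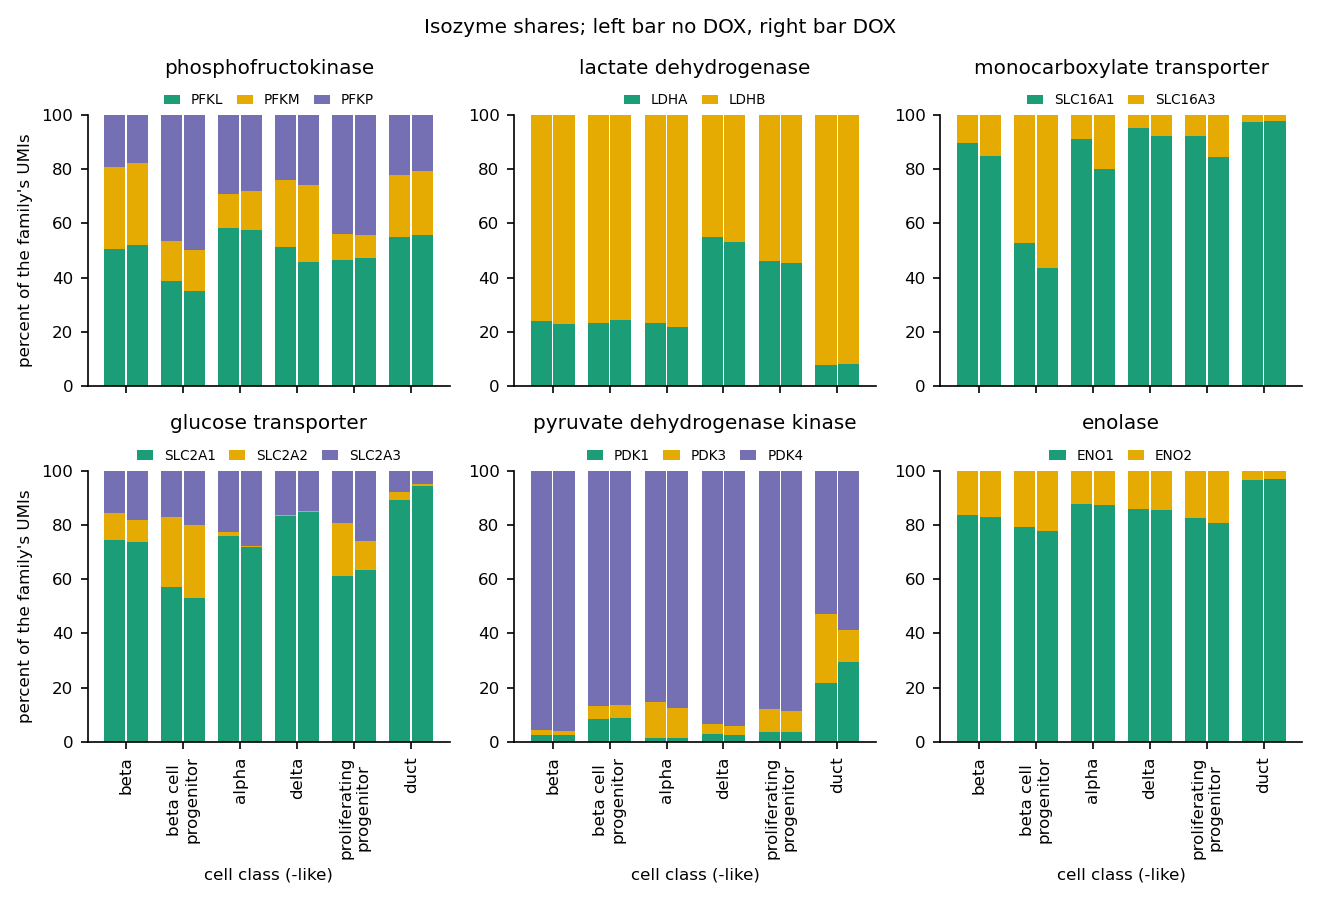
Share of each isozyme in the UMIs of its family, members only (percent, stacked to 100), in 6 cell classes, left bar for the library labelled no DOX and right bar for DOX, without error bars. PFKP and SLC16A3 take their largest shares in beta cell progenitor-like cells, LDHA in delta-like cells and LDHB in duct-like cells. PDK4 dominates over PDK1 and PDK3 outside duct-like cells.

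In all, 9 of the 36 members were under 10 CPM in every named class of each library and entered no main count of members 2-fold apart: SLC2A2, SLC2A3, HK1, HK2, PFKFB3, PKLR, SLC16A3, PDK1 and PC, the pyruvate carboxylase that refills the citrate cycle. In the Beta-2-like cluster SLC2A2 reached 10.4 CPM in the library labelled no DOX but 8.50 CPM pooled, under the minimum. SLC2A3, PDK1 and PC were low, between 1.97 and 7.15 CPM in every named class of both libraries. Differences among these genes were limited by depth, most of all in the 153 and 178 duct-like cells.

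Between the libraries as labelled, differences of the members were small. A member was counted when its log2 ratio was at least 0.3 and it reached 5 CPM in 1 library. Over all cells 0 of 27 members were higher and 2 were lower in the library labelled DOX, against 1.37% and 2.3% of 10444 genes. The ratios ran from -0.45 to 0.12, with a median of -0.05 for the members and -0.01 for all genes. G6PC2 was at 18.8 and 14.5 CPM, a ratio of -0.37 (-0.43 to -0.32), and PDK3 at 9.46 and 6.93 CPM, a ratio of -0.45 (-0.53 to -0.37). Both genes were highest in alpha-like cells, which made up 23.3% and 17.8% of the libraries, with delta-like cells at 12.1% and 8.34%, beta cell progenitor-like cells at 24.2% and 23.0% and beta-like cells at 32.2% and 42.8%. Within alpha-like cells the ratios were -0.23 and -0.17, and with every class weighted equally -0.24 and -0.22, so that neither was counted. SOX9 had no lower transcript level under the label DOX, and with 1 library each a difference between libraries cannot be told apart from one between conditions.

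Beta-like cells, the class the study addressed, had 0 of 27 members higher and 4 lower in the library labelled DOX, against 1.34% and 2.86% of 9842 genes, with medians of -0.08 for the members and -0.01 for all genes. LDHA was at 30.8 and 22.6 CPM, a log2 ratio of -0.45 (-0.51 to -0.38), and LDHB at 97.9 and 76.5 CPM, -0.36 (-0.39 to -0.32). SLC2A1 was at 24.6 and 18.6 CPM, -0.41 (-0.48 to -0.33), and SLC16A1 at 7.61 and 5.94 CPM, -0.36 (-0.49 to -0.23). SLC16A3, the other monocarboxylate transporter, was at 0.866 and 1.05 CPM, under the minimum. In the same contrast the mesenchymal marker COL1A2 was higher (0.87) and the pluripotent marker ZFP42 lower (-0.53), and their part in these values was not tested. ZFP42 was also the leading gene of the Beta-2-like cluster, which held 31.1% and 26.1% of beta-like cells. The 4 beta clusters took different shares of the class in the 2 libraries, and within them LDHA was lower in each, with ratios of -0.31 in Beta-2-like, -0.50 in MFAP4-led, -0.37 in MT1B-led and -0.46 in GHRH-led cells. SLC2A1 was likewise lower in each, between -0.58 and -0.16. LDHB was between -0.28 and -0.12, under the limit in every cluster, and SLC16A1 between -0.43 and 0.05.

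With the 4 clusters weighted equally, an alternative added after the data were seen, LDHA and SLC2A1 were still counted and LDHB (-0.25) and SLC16A1 (-0.23) were not. SLC2A2 within Beta-2-like cells had a ratio of -0.63 (-0.84 to -0.41), at 10.4 and 6.72 CPM. Among members at 5 CPM or more, TXNIP had the largest positive ratio in beta-like cells, 0.23 (0.17 to 0.29), and had 0.40 (0.23 to 0.58) in proliferating progenitor-like cells. The same cells differed in depth between the libraries, with medians of 17980 and 14739 UMIs in beta-like cells, and the part of depth in these ratios was not tested. Thinning to 5000 UMIs weighted cells equally and dropped shallower ones (368 and 312 beta-like cells), but kept each cell's expected share of a gene. After it LDHB alone of the 4 was not counted (-0.29).

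Across the 6 classes, the level under the label DOX was below that under no DOX in 6 of 6 for PFKP, SLC2A2 and HK2, and in 5 of 6 for SLC2A1, G6PC2, PFKL, LDHA, SLC16A1, PDK3 and PGK1. It was above in 5 of 6 for TXNIP, PDHB and SLC16A3. The same count over all genes was not made, and counting error was not weighed. PFKP was at 83.9 CPM in progenitors of both libraries, SLC2A2 had 3 and 2 UMIs in delta-like cells and HK2 had 2 and 1 in beta-like cells. Most of the differences behind these directions were under 0.3. Outside beta-like cells the ratios past it among members at 5 CPM with an interval clear of 0 included SLC16A1 (-0.43) and HADH (-0.33) in beta cell progenitor-like cells, PFKFB2 (-0.40) and HK1 (0.36) in alpha-like cells, PFKL (-0.36) in delta-like cells, SLC16A1 (-0.41) in proliferating progenitor-like cells and PDHA1 (0.62, 0.24 to 1.01) in duct-like cells. In proliferating progenitor-like cells 2 of 30 members were past the limit upward and 5 downward, with intervals clear of 0 for TXNIP and SLC16A1 alone. The share of all genes past the limit was not computed for this class, so these counts have no background beside them. Over all cells, none of the further glycolysis, citrate cycle, shuttle, pentose phosphate or fatty acid oxidation genes passed 0.3, and EGLN3 was lower among 17 hypoxia-responsive genes.

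**Figure D5:**
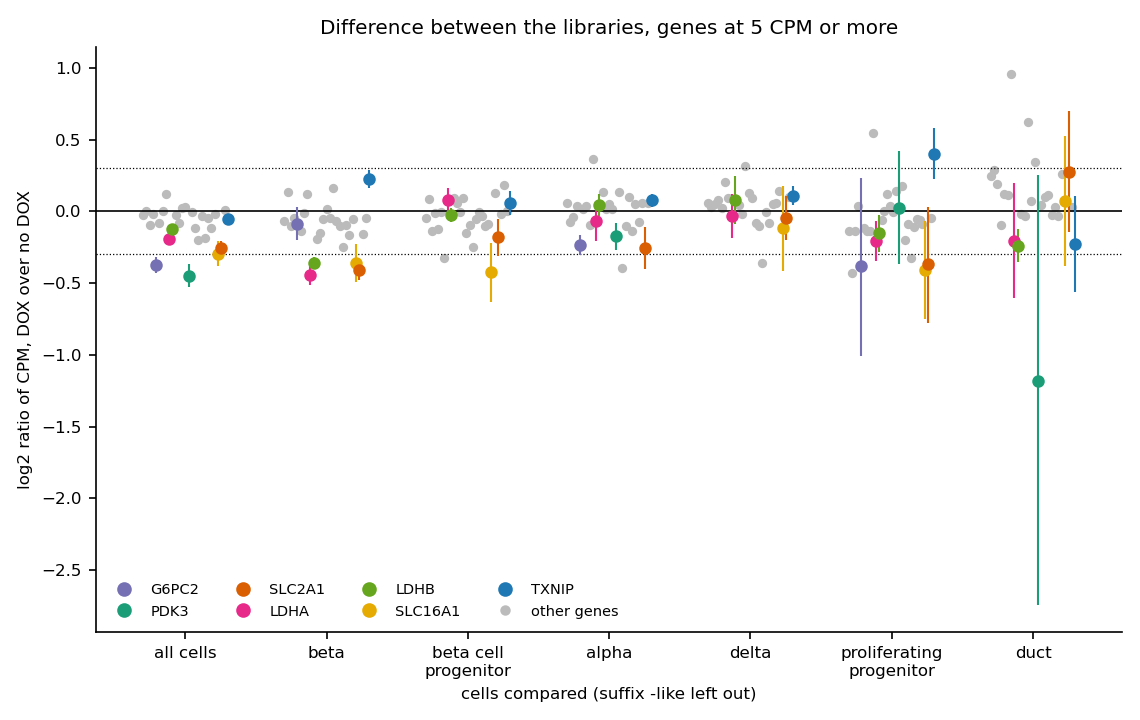
Log2 ratio of CPM, library labelled DOX over no DOX, for members at 5 CPM or more in either library, over all cells and in 6 classes. Coloured points are the named genes with exact 95% intervals, grey points are the other members, and dotted lines lie at 0.3 above and below 0. In all cells G6PC2 and PDK3 lie below the lower line, in beta-like cells SLC2A1, LDHA, LDHB and SLC16A1 do, and the widest intervals are those of duct-like cells.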

How the data were processed

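Droplet single-cell RNA-seq (10X Genomics) of 2 eBC libraries was analysed, 1 per condition. The authors deposited UMI counts per gene and barcode, not normalized. GRCh38 and Cell Ranger 3.0, kallisto, bustools 0.40.0, Scanpy and Seurat are named in the submitters' processing notes. The study's methods name kallisto for pseudoalignment, bustools for counts and Scanpy for clustering. The header of the deposited counts gives software version 3.0.2. The annotation release is not given in the sources used here. The label's extraction text describes islet RNA and differs from the study's single-cell methods. Library totals were 550240855 (no DOX) and 520849221 (DOX) UMIs.

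Barcodes of at least 1000 UMIs were kept, and doublets predicted with Scrublet (26.6% and 26.5%) were removed. Counts were scaled to 10000 per cell and logged for clustering only (scanpy 1.11.5, 50 principal components, 3 neighbours per library, Leiden resolutions 0.2 and 0.5). A cluster took the name of a list when at least 3 of its markers were at least 2-fold higher than in the other cells. The mean log2 ratio of the whole list had also to be at least 1. At least 1 marker had to be among the cluster's 10 leading genes, with no other list holding more there. Of 2293 variable genes, 10 were members and were left out. UMIs were then summed per class and library into CPM, and exact intervals were computed with scipy 1.17.1 (python 3.11.15). No p-value was computed. The scripts were tested on simulated data. Named genes are the members 2-fold apart between classes, those in isozyme families and those past 0.3 between libraries, and up to 4 genes of each further list by size. Clusters within the beta-like and progenitor classes were described after their values were seen. The members and lists were chosen with earlier results of these data known. Alternatives covered depth, doublets, mitochondrial share, clustering, denominators, thinning and thresholds. Promoter windows are from RefSeq (GRCh38.p14).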

Additional observations from a re-analysis of the deposited data

How the results depend on the processing

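With 1 library per condition nothing could be left out and no spread between replicates is known. No paired analysis was possible because the groups share no replicate pairs and no test was run. Of the values behind counts, sums and shares, 61 kept within 1.5 times their main value, or within their interval, over the alternatives and 18 moved. For single genes 270 kept their side of the limit, 20 did not and 1 reversed: HADH in alpha-like over beta-like cells, at -1.14, was 0.25 with another clustering seed, and the cause was not tested. The 270 include the settings with a 1.5-fold limit and with no minimum level, under which a gene already counted could not be lost.

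At a 1.5-fold limit the members apart numbered 10 in beta cell progenitor-like over beta-like, 10 in alpha-like over beta-like, 6 in delta-like over beta-like, 5 in Beta-1-like over Beta-2-like, 9 in proliferating over endocrine and 15 in duct-like over endocrine cells, against 5, 5, 2, 2, 4 and 8 at 2-fold. With no minimum level they numbered 11, 9, 7 and 8 in the first 4 of these, and 4 between the libraries over all cells, where the genes added lie under the minimum by construction. The shares of all genes at these other limits were not computed. With doublets kept, the duct-like count was 4. Keeping them left no proliferating class, so that contrast and the isozyme shares were not run. Between libraries, the count over all cells was 0 with classes weighted equally and 0 on means of log-normalized values per cell, where differences are compressed (G6PC2 -0.03, PDK3 -0.02). The count in beta-like cells was 2 with the 4 clusters weighted equally, chosen after the data were seen. The SOX9 ratio was 0.16 with classes weighted equally. The summed glycolysis level of beta cell progenitor-like over beta-like cells, a log2 ratio of 0.63, was 0.43 with hormone and mitochondrial UMIs left out of the total. On that total, also chosen after the data were seen for these counts, delta-like cells were lowest for 14 members instead of 25. Depth limits the members under 10 CPM and the duct-like cells most.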
